A study of Rattus norvegicus with 6 samples.

Results

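Aminoacyl-tRNA synthetases, the enzymes that join each amino acid to its tRNA, were examined in cultured primary rat hepatocytes exposed to trimethylamine N-oxide (TMAO). The genes were taken by symbol from a list of 38. The list names 19 cytosolic enzymes or enzyme subunits, 3 scaffold proteins and 16 mitochondrial enzymes. A named probe set was found for 35 of them, each gene with 1 probe set, among 15037 genes tested. Iars2, Lars2 and Mars2 were not analysed here, so 22 cytosolic members and 13 mitochondrial members remained.

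The 6 Affymetrix Clariom S Rat arrays came from hepatocytes of male Sprague-Dawley rats aged 8 weeks, plated on collagen in medium with 10% serum. In the TMAO group (n = 3), cells received 50 µM TMAO for 30 h. In the Control group (n = 3), cells were left untreated. The labels call the arrays biological repeats but do not say whether cells of different animals were used, so p-values measure the spread between these arrays, which may be technical. Primary cultures model hepatocytes outside the liver, and the signal of each array is that of a whole culture. In bulk cultures, fewer cells of a type and less RNA per cell cannot be told apart.

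Synthetases feed the ribosome with charged tRNA. In the cytosol, several of them sit in one large multisynthetase complex, which is held together by the scaffold proteins Aimp1, Aimp2 and Eef1e1. Mitochondria translate a few proteins of their own and mostly use a separate set of synthetases, encoded in the nucleus by other genes. Many cytosolic synthetase genes are known targets of ATF4, a transcription factor made in larger amounts when stress kinases phosphorylate the initiation factor eIF2alpha, as happens in endoplasmic reticulum stress or amino acid shortage. ATF4 binds with C/EBP partners to the C/EBP-ATF response element (CARE) in its target genes.

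The promoter windows of the members are shown first, because the members that carry a CARE word all belong to the cytosolic set. Windows of 300 bases, from 250 before to 50 after the transcript start, came from RefSeq (rat assembly GRCr8) and were found for 36 of the 38 genes. Gars1 and Rars1 had none in the table. The word searched was TTGCATCA on both strands, which is the reverse complement of TGATGCAA. It lay in the windows of 7 of 17 cytosolic enzymes, 0 of 3 scaffolds and 0 of 16 mitochondrial enzymes. Among all 33469 windows 0.795% held it, as did the windows of 0.724% of the 12435 measured genes that have one. In the lines below the word is in capitals. For 5 genes the stretch is taken from before the transcript start. For Cars1 and Yars1, where the word lies after the start, at most 30 bases are shown.
Aars1 (chr19:55908310-55908437, plus strand): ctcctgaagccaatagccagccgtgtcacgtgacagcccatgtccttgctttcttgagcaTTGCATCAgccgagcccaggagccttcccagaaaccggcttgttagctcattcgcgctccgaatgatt
Cars1 (chr1:208225334-208225363, minus strand): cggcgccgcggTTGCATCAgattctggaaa
Iars1 (chr17:15193653-15193736, minus strand): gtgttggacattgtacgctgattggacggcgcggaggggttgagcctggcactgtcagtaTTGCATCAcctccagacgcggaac
Mars1 (chr7:65023754-65023830, minus strand): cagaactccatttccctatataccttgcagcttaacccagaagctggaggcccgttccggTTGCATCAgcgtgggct
Nars1 (chr18:60275783-60275856, minus strand): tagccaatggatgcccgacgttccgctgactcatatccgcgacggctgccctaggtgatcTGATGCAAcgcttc
Tars1 (chr2:62114803-62114889, minus strand): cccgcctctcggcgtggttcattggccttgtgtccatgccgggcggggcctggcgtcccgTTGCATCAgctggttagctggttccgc
Yars1 (chr5:146820183-146820212, plus strand): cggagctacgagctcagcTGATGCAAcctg
The word sat between positions -112 and -105 in Aars1, counted from the transcript start with no position 0. In Iars1, Mars1, Nars1 and Tars1 its first base lay at -24, -17, -14 and -27. In Cars1 and Yars1 it lay at 18 and 39, within the transcribed part. The looser core TGATGNAA, of which TGATGCAA is a case, was found in the windows of the same 7 genes, with a further copy in Aars1, and in 3.98% of all windows. The cyclic AMP response element TGACGTCA and the endoplasmic reticulum stress element (ERSE), also searched on both strands, were found in 0 of the members' windows, and in 1.83% and 0.0657% of all windows. These are matches of letters in a short window, and binding was not measured.

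Of the 22 cytosolic members 21 had a higher mean under TMAO, as did 6 of the 13 mitochondrial members and 49% of all genes. None of the 35 measured members passed the threshold of an adjusted p of 0.05 over all genes. By limma, 4 of 15037 genes passed it, or 0.0266%. The lowest adjusted p of a member was 0.251. When the spread was moderated with a trend and robustly, 0.2% of all genes passed, and among them were 4 members, Wars1, Sars1, Yars1 and Gars1. At an unadjusted p under 0.05, 12 of the 22 cytosolic members had a higher signal under TMAO, all of them enzymes, against 3.01% of all genes. None of the 13 mitochondrial members did, and 0 members of either set had a lower signal at that level, against 2.48% of all genes. For 13 genes, a count of 0 is near these shares of all genes. The median difference, TMAO minus Control on the log2 scale, was 0.31 over the 22 cytosolic members, or 1.24-fold. Over the 13 mitochondrial members it was -0.0016, and over all genes -0.0035.

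**Figure D1:**
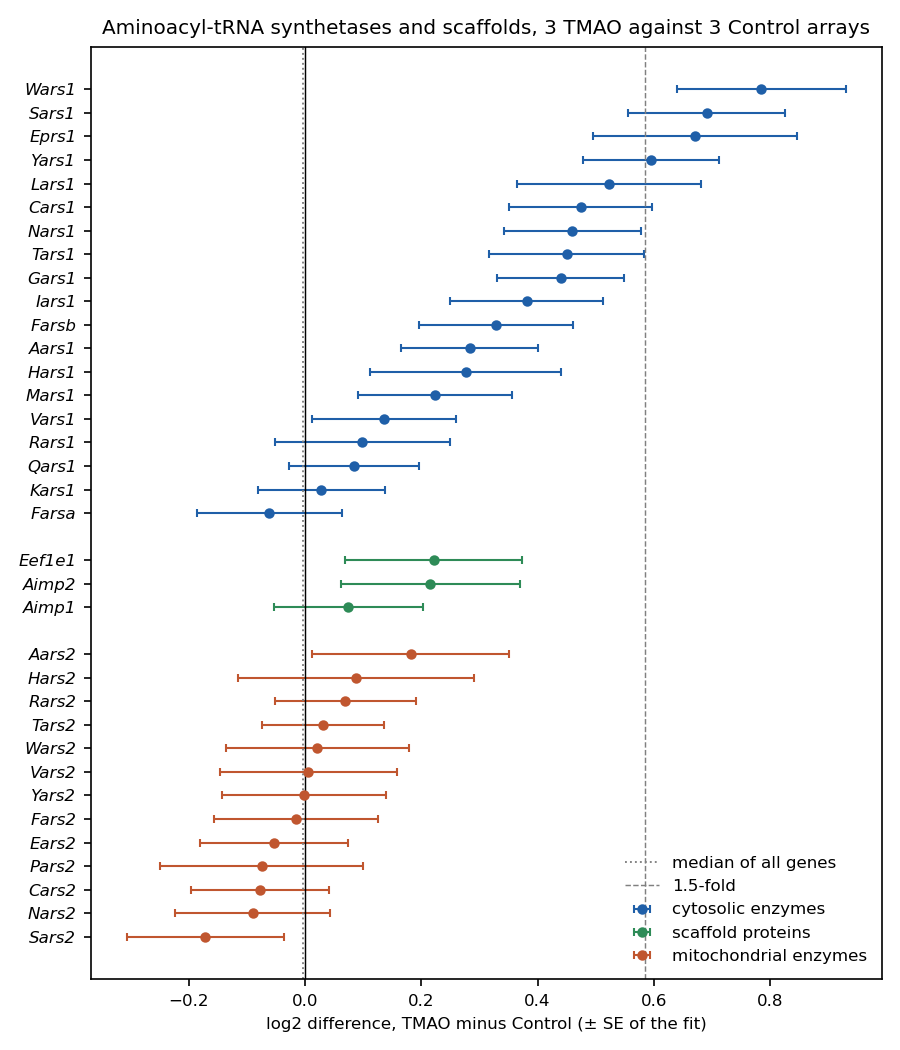
Fitted log2 difference, TMAO minus Control, of each measured member (points) with its standard error from limma (bars), by compartment, for 3 TMAO and 3 Control arrays. The cytosolic enzymes reach from -0.06 for Farsa to 0.78 for Wars1, and the mitochondrial enzymes lie between -0.17 and 0.18.

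The lowest p-values belonged to Wars1, Sars1 and Yars1, which charge the tRNAs of tryptophan, serine and tyrosine. Wars1, also known as an interferon-induced gene, had log2 signals of 9.64, 9.76 and 10.13 on the TMAO arrays, against 9.01, 8.99 and 9.17 on the Control arrays. The groups did not overlap, and TMAO replicate 3 was the highest. Its difference was 0.78 ± 0.15 (SE of the fit), or 1.72-fold, with an unadjusted p of 0.000401 and an adjusted p of 0.251. Sars1 (10.16, 10.15 and 10.49 under TMAO, against 9.53, 9.47 and 9.73 in Control) differed by 0.69 ± 0.14, or 1.61-fold. Yars1 (8.63, 8.59 and 8.77 under TMAO, against 7.99, 8.01 and 8.20 in Control) differed by 0.59 ± 0.12, or 1.51-fold. For both genes every TMAO array stood above every Control array, and each had an adjusted p of 0.278.

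A second set of enzymes outside the complex had differences near 0.45 on the log2 scale. Nars1, the enzyme for asparagine, had 10.79, 10.63 and 10.91 under TMAO, against 10.31, 10.25 and 10.40 in Control. Cars1, the enzyme for cysteine, had 8.59, 8.35 and 8.69 under TMAO, against 8.04, 8.11 and 8.06 in Control. Tars1, the enzyme for threonine, had 9.30, 8.98 and 9.28 under TMAO, against 8.85, 8.58 and 8.78 in Control. The Control arrays of Cars1 were close together, and in all of these genes TMAO replicate 2 was the lowest TMAO array but still above every Control array. The differences were 0.46 ± 0.12 for Nars1 and 0.47 ± 0.12 for Cars1, each with an adjusted p of 0.581, and 0.45 ± 0.13 for Tars1, with an adjusted p of 0.762.

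Gars1 and Kars1 are the members whose single gene serves both cytosol and mitochondria. Gars1, the glycine enzyme, had 10.32, 10.35 and 10.48 under TMAO, against 10.01, 9.91 and 9.91 in Control. Kars1, the lysine enzyme, had 8.74, 8.75 and 8.92 under TMAO, against 8.73, 8.80 and 8.79 in Control. The Gars1 groups did not overlap, and those of Kars1 did. Gars1 differed by 0.44 ± 0.11 (adjusted p 0.573) and Kars1 by 0.03 ± 0.11 (adjusted p 0.997, 95% interval -0.22 to 0.28).

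Within the multisynthetase complex the enzymes spread widely. Eprs1, a fusion of the glutamate and proline enzymes, had 8.01, 8.05 and 8.53 under TMAO, against 7.67, 7.66 and 7.25 in Control. Lars1, for leucine, had 8.77, 8.42 and 8.91 under TMAO, against 8.37, 8.16 and 7.99 in Control. Iars1, for isoleucine, had 9.44, 9.31 and 9.74 under TMAO, against 9.11, 9.12 and 9.12 in Control. In all of these genes TMAO replicate 3 was the highest array, and in Eprs1 and Lars1 Control replicate 3 was the lowest. Their differences were 0.67 ± 0.18, 0.52 ± 0.16 and 0.38 ± 0.13, with adjusted p of 0.581, 0.782 and 0.856.

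The other enzymes of the complex had smaller differences. Qars1, which supplies the glutamine tRNA of the cytosol, had 9.01, 9.07 and 8.94 under TMAO, against 9.01, 8.95 and 8.81 in Control, and the groups overlapped. It differed by 0.08 ± 0.11 (95% interval -0.17 to 0.34). Mars1, for methionine, and Rars1, for arginine, differed by 0.22 ± 0.13 and 0.10 ± 0.15, with overlap between the groups. In all, 3 of the 7 enzymes of the complex were higher at an unadjusted p under 0.05, with a median difference of 0.22, where 3.01% of all genes were, with a median of -0.0035. Of the 12 cytosolic enzymes outside it 9 were, with a median of 0.45, and whether the sets differ was not tested.

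The scaffold proteins of the complex had means that were higher under TMAO, and the groups of all 3 overlapped. Eef1e1, also called AIMP3, had 7.05, 6.74 and 7.23 under TMAO, against 6.60, 6.86 and 6.90 in Control. Its TMAO replicate 2 lay below Control replicates 2 and 3. The differences were 0.22 ± 0.15 for Eef1e1, 0.22 ± 0.15 for Aimp2 and 0.07 ± 0.13 for Aimp1, with adjusted p of 0.963, 0.963 and 0.996.

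Among the remaining cytosolic enzymes, the subunits of phenylalanine-tRNA synthetase had unlike values. Farsb, its beta subunit, had 6.74, 6.85 and 7.14 under TMAO, against 6.65, 6.61 and 6.48 in Control. Farsa, its alpha subunit, had 7.21, 7.21 and 7.42 under TMAO, against 7.50, 7.23 and 7.28 in Control. Farsb had no overlap between the groups and a difference of 0.33 ± 0.13, while Farsa had the largest negative difference of the cytosolic members, -0.06 ± 0.12. The Farsb minus Farsa log2 difference of each array was 0.39 larger under TMAO, with an exact two-sided permutation p of 0.1, the smallest that 3 against 3 arrays allow. This pair was chosen after its values were seen. Without TMAO replicate 3 the difference of Farsb came to 0.21.

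Aars1, the alanine enzyme, had 9.44, 9.29 and 9.49 under TMAO, against 9.01, 9.13 and 9.24 in Control. The groups were 0.05 apart at their nearest arrays. Its difference was 0.28 ± 0.12, with an adjusted p of 0.909. Hars1, for histidine, and Vars1, for valine, had differences of 0.28 ± 0.16 and 0.14 ± 0.12, and their groups overlapped.

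The 12 enzymes at an unadjusted p under 0.05 were also those whose 3 TMAO arrays each exceeded every Control array. Over all genes 5.51% had that order and 5.33% the opposite one, which 0 members had. At least 1.5-fold higher at an unadjusted p under 0.05 were 4 members, Wars1, Sars1, Eprs1 and Yars1, against 0.579% of all genes. By the structural class of the enzyme, 5 of 9 class I and 6 of 9 class II cytosolic enzymes or subunits were higher at an unadjusted p under 0.05, against 3.01% of all genes, with medians of 0.38 and 0.33. Eprs1, which joins an enzyme of each class, stands outside these counts.

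On the leading principal component over all genes, with 30.8% of the variance, TMAO replicate 3 had a score of 27.6 and no other array exceeded -1.48. It was the highest array for 17 of the 22 cytosolic members and for 3 of the 13 mitochondrial ones. The share of all genes for which it was the highest is not given here. Relative to their own 6-array means, the 19 cytosolic enzymes averaged 0.12, 0.08 and 0.34 on the TMAO arrays, against -0.16, -0.21 and -0.17 on the Control arrays. All TMAO arrays thus lay above all Control arrays, with replicate 3 the farthest. Without TMAO replicate 3 the median over the 22 cytosolic members was 0.23, and 9 were higher at an unadjusted p under 0.05, against 2.85% of all genes. These 9 were among the 12, and Aars1, Farsb and Iars1 were lost.

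**Figure D2:**
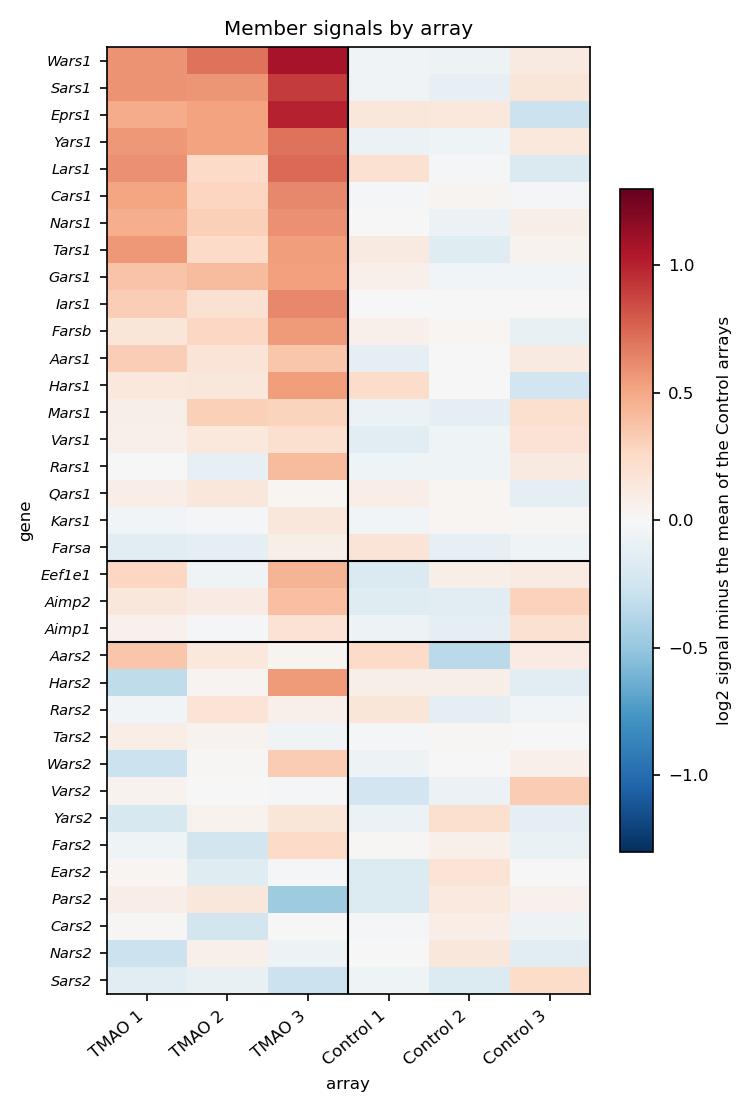
Log2 signal of each measured member on each array minus the mean of the Control arrays, with TMAO arrays on the left, Control arrays on the right and lines between cytosolic enzymes, scaffolds and mitochondrial enzymes. The upper cytosolic rows are red on all 3 TMAO arrays and mostly deepest on TMAO replicate 3, while the mitochondrial rows show no block of one colour.

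The mitochondrial enzymes had differences from -0.17 to 0.18, of which 6 were positive and 7 negative, against 49% positive and 51% negative over all genes. The groups overlapped for all 13. Over all genes 5.51% had all TMAO arrays above all Control arrays and 5.33% below, so most genes overlapped as well. Sars2, for serine, had the lowest p and the largest negative difference, with 5.92, 5.95 and 5.77 under TMAO, against 5.996, 5.87 and 6.28 in Control. It differed by -0.17 ± 0.13 (adjusted p 0.963), and Control replicate 3 was its highest array. Aars2, for alanine, had 5.86, 5.64 and 5.54 under TMAO, against 5.75, 5.15 and 5.61 in Control. Its difference of 0.18 ± 0.17 (adjusted p 0.972) was the largest positive one of the set.

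Nars2, for asparagine, had 6.23, 6.57 and 6.44 under TMAO, against 6.50, 6.65 and 6.37 in Control. Cars2, for cysteine, had 5.12, 4.87 and 5.11 under TMAO, against 5.09, 5.20 and 5.04 in Control. Neither showed an order between the groups, with differences of -0.09 ± 0.13 and -0.08 ± 0.12. Hars2, for histidine, had the widest error of the set (0.09 ± 0.20), since its TMAO arrays read 6.44, 6.80 and 7.32, against 6.84, 6.84 and 6.62 in Control.

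The remaining mitochondrial enzymes lay close to 0. Tars2, for threonine, had 8.29, 8.24 and 8.15 under TMAO, against 8.18, 8.21 and 8.19 in Control, and so the tightest error of all members (0.03 ± 0.11). Wars2, for tryptophan, had 7.23, 7.53 and 7.84 under TMAO, against 7.44, 7.51 and 7.58 in Control. Its mean differed by 0.02 ± 0.16, with TMAO arrays both at the top and at the bottom. Yars2, for tyrosine, had 6.23, 6.48 and 6.60 under TMAO, against 6.36, 6.65 and 6.32 in Control. Ears2, which charges the mitochondrial tRNAs of glutamate and, before amidation, of glutamine, had 6.56, 6.37 and 6.50 under TMAO, against 6.35, 6.71 and 6.52 in Control. Pars2, for proline, had 5.83, 5.89 and 5.28 under TMAO, against 5.56, 5.86 and 5.80 in Control. Differences were -0.0016 ± 0.14 for Yars2, -0.05 ± 0.13 for Ears2 and -0.07 ± 0.17 for Pars2, and those of Rars2, Fars2 and Vars2 were 0.07 ± 0.12, -0.02 ± 0.14 and 0.01 ± 0.15.

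A p above the threshold does not show that the mitochondrial genes stayed the same, but the intervals limit the size. The upper 95% bounds of all 13 lay below a 1.5-fold increase, the highest being that of Aars2 at 0.56 on the log2 scale. Those of 13775 of the 15037 genes tested did too, so this is no trait particular to the mitochondrial set. The median SE was 0.14 for the mitochondrial and 0.13 for the cytosolic members. Because limma draws the errors of all genes toward a common value, this does not show that the sets were measured with like precision. Signals were nearer to background in the mitochondrial set. Its lowest mean was 1.08 log2 units above the median of the negative control probe sets under TMAO and 1.15 in Control, while the lowest cytosolic mean was 2.96 above it under TMAO and 2.63 in Control. The highest mean of the set was that of Tars2, at 4.27 above the negative controls under TMAO and 4.24 in Control. The part of low signal in the small differences was not tested.

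Enzymes of the same amino acid were then set against each other. A measured partner existed for 14 of 17 pairs, covering 13 amino acids, with Eprs1 and Fars2 each in 2 pairs. For every array the cytosolic minus mitochondrial log2 signal was formed, and only its change between the groups was read. The cytosolic enzyme had the larger change in 13 pairs and the smaller one in 1, that of Farsa and Fars2. The pairs reuse the member signals given above, so they are not separate support for the cytosolic differences. The median of the cytosolic minus the mitochondrial change was 0.48. In 9 pairs all TMAO arrays stood above all Control arrays, where 3.6% of all genes set against the same mitochondrial genes did. Each of these 9 had an exact two-sided permutation p of 0.1, the smallest possible with 3 against 3 arrays, so no pair could reach 0.05.

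**Figure D3:**
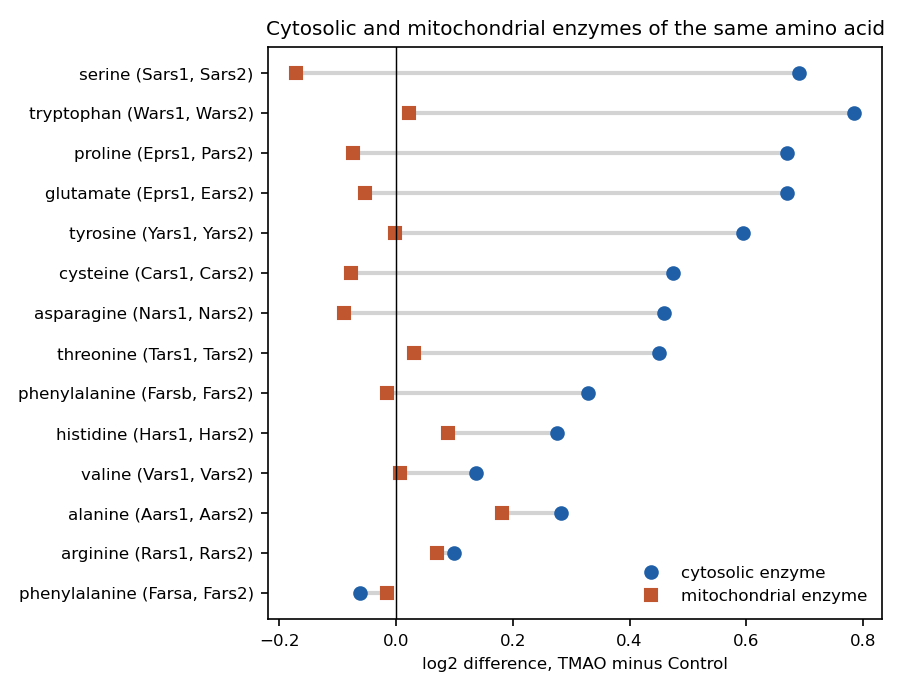
Log2 difference, TMAO minus Control, of the cytosolic (circles) and mitochondrial (squares) enzyme of each amino acid, joined by a line, in order of the gap between them. The gap is widest for serine (0.86) and turns round for Farsa and Fars2 (-0.05).

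The serine pair differed most. Sars1 minus Sars2 was 4.25, 4.20 and 4.71 on the TMAO arrays, against 3.53, 3.60 and 3.45 on the Control arrays, a change of 0.86. For tryptophan, Wars1 minus Wars2 was 2.41, 2.23 and 2.29 under TMAO, against 1.56, 1.48 and 1.59 in Control, a change of 0.76. The TMAO and Control arrays were farther apart from each other here than within either group. The changes were 0.74 for proline, 0.72 for glutamate, 0.60 for tyrosine, 0.55 for cysteine, 0.55 for asparagine and 0.42 for threonine. The alanine pair changed by 0.10, the arginine pair by 0.03 and the valine pair by 0.13, with overlapping groups.

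Other genes of tRNA metabolism and mitochondrial translation had medians near 0. Of 25 listed genes that process, export, proofread or modify tRNA, or accompany its charging, 20 were measured. None of these was higher or lower at an unadjusted p under 0.05, against 3.01% and 2.48% of all genes. In a list this short, a count of 0 is near those shares. The median difference of the 20 genes was -0.04. The lowest p belonged to Tsen34, a subunit of the tRNA splicing endonuclease (-0.24 ± 0.13, adjusted p 0.958), and Trnt1, which adds the CCA end to tRNA, differed by 0.26 ± 0.15. Of 10 measured mitochondrial translation factors, of 11 listed, likewise 0 were called, against the same shares of all genes. Their median was -0.0082. Guf1, a mitochondrial elongation factor homologue, had 0.22 ± 0.18, and Tufm, the mitochondrial elongation factor that brings charged tRNA to the ribosome, had -0.10 ± 0.12.

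Genes of amino acid uptake and synthesis and stress factors that are linked to ATF4 had a median difference of 0.57, against 0.38 for the 19 cytosolic enzymes. The list was drawn up with earlier results of these data known. Of 30 measured, 22 were higher at an unadjusted p under 0.05, against 3.01% of all genes. The lipoprotein receptor gene Vldlr was the 1 that passed the adjusted threshold, as 0.0266% of all genes did. Cbs, which makes cystathionine on the way to cysteine, was the 1 gene of the list with a negative difference (-0.36 ± 0.17, adjusted p 0.945), and its TMAO arrays all lay below its Control arrays. Slc7a5, which carries tryptophan, tyrosine, leucine and other large amino acids into cells, had 8.64, 8.10 and 8.91 under TMAO, against 7.12, 7.20 and 7.37 in Control. Its difference was 1.32 ± 0.19, while Cth, which makes cysteine, differed by 1.41 ± 0.21. On the arrays these 30 genes averaged 0.33, 0.17 and 0.49 under TMAO, against -0.28, -0.42 and -0.30 in Control, relative to the mean of all arrays. The order of the TMAO arrays, with replicate 3 highest and replicate 2 lowest, was that of the cytosolic synthetases. It was also that of the scaffold proteins (0.07, -0.07 and 0.26) and of the other tRNA genes (-0.04, -0.07 and 0.09). The mitochondrial enzymes and translation factors had replicate 3 highest and replicate 1 lowest. The order is thus not particular to the ATF4-associated genes and the cytosolic enzymes.

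**Figure D4:**
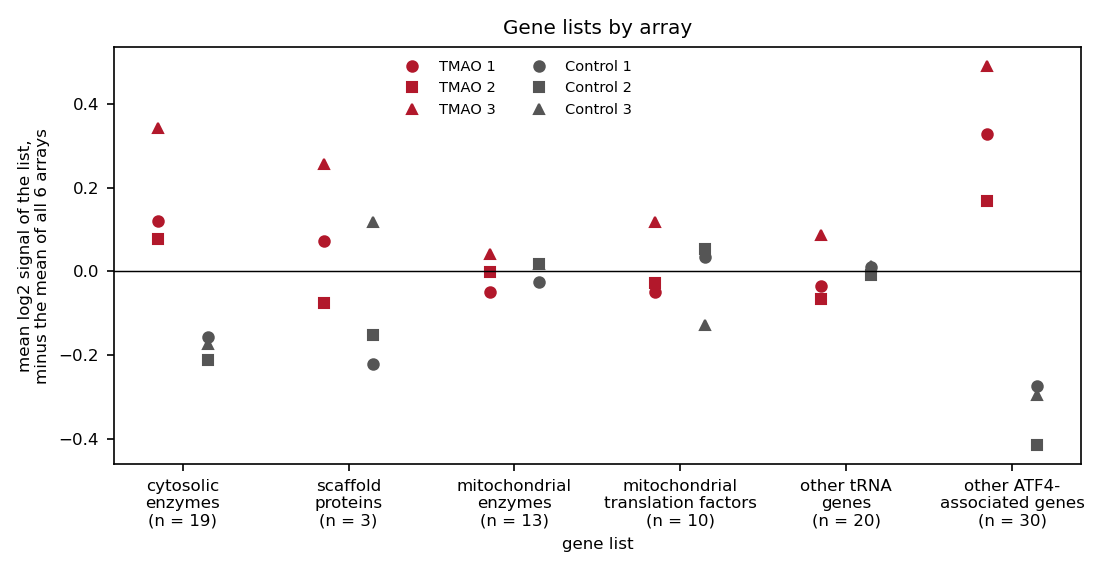
Mean log2 signal of the genes of each list on each array, minus the mean of all 6 arrays, with TMAO arrays (red) left of Control arrays (grey) and a marker shape for each replicate number. The TMAO arrays lie above the Control arrays for cytosolic enzymes (0.08 to 0.34, against -0.21 to -0.16) and for ATF4-associated genes, and overlap them for the other 4 lists.

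Cytosolic enzymes with and without the promoter word overlapped in their differences. The 7 enzymes with TTGCATCA in the window were Aars1, Cars1, Iars1, Mars1, Nars1, Tars1 and Yars1, and their median difference was 0.45. The other 10 with a window had a median of 0.30, and among them were Wars1, Sars1 and Eprs1, 3 of the 4 largest differences. Of the 90 measured genes with the word in a window, 12 (13.3%) were higher at an unadjusted p under 0.05, and 6 of these 12 were synthetases. Of the 83 that are not members 6 were, or 7.23%, against 3.01% of all genes, with a median difference of 0.02. These 83 include Pycr1, Slc1a4, Chac1 and Nupr1 of the ATF4-associated list, which was drawn up with earlier results known. Slc1a4 and Chac1 were among the 6. The other motifs gave unlike shares. The 373 genes outside the synthetases with the looser core TGATGNAA also include genes of the ATF4-associated list. Of these 373, 4.56% were higher at that level, with a median of 0.0066. Of 324 with the cyclic AMP response element, 1.54% were, with a median of 0.0044. ERSE, which no synthetase window held, was in the windows of 15 measured genes, of which 7 (46.7%) were higher, with a median of 0.30. Of 26 genes of the ATF4-associated list with a window, 4 held the word, and their median difference was 0.40, against 0.59 for the measured ones without it.

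Markers were read to check the cells. The 9 measured hepatocyte markers, such as albumin and transthyretin, averaged 9.25 to 9.48 on the TMAO arrays, against 9.34 to 9.46 on the Control arrays. Of all 15037 genes tested, 9735 had means at least 1 log2 unit above the negative controls in both groups. So did 8 of the 9 hepatocyte markers, all but Cps1, whose Control mean was 4.85 (negative control median 3.95). In the other lists 3 of 9 macrophage, 0 of 6 endothelial, 3 of 7 stellate and fibroblast and 4 of 4 cholangiocyte markers did. The mean log2 signals of these other lists were 4.71 to 4.90 under TMAO and 4.81 to 5.11 in Control for macrophages, and 4.03 to 4.17 under TMAO and 4.09 to 4.38 in Control for endothelial cells. They were 4.63 to 4.996 under TMAO and 4.92 to 4.98 in Control for stellate cells, and 5.35 to 5.92 under TMAO and 5.51 to 5.70 in Control for cholangiocytes. Of the 35 measured markers of all 5 lists, 0 were higher and 2 were lower under TMAO at an unadjusted p under 0.05, against 3.01% and 2.48% of all genes. Cd163, a scavenger receptor of macrophages, had 5.04, 4.74 and 4.82 under TMAO, against 5.18, 5.41 and 5.17 in Control, with no overlap (-0.39 ± 0.13, adjusted p 0.856). Cdh5, the cadherin of endothelial junctions, had 3.65, 3.997 and 3.44 under TMAO, against 3.71, 4.42 and 4.65 in Control (-0.57 ± 0.24, adjusted p 0.909), and its groups overlapped. The hepatocyte marker Fgb, a fibrinogen chain, also had all TMAO arrays below all Control arrays (-0.27 ± 0.13, adjusted p 0.938). TMAO replicate 3 had the lowest value of all 6 arrays in each of these lists of other cells, and the part of cell makeup in the synthetase differences was not tested.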

How the data were processed

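Expression was measured on 6 arrays. The values are log2 signals that the authors deposited, 1 per probe set and array. Biotin-labelled cRNA was prepared by the Affymetrix protocol, per the labels' protocols. For background correction, normalization and summary the sources used here state no method, and the submitters' processing notes name limma without a role. A further table of 6 numbered columns that no label ties to samples was not used. Of 24871 probe sets 1683 controls were left out, and 15049 had a gene symbol in the platform annotation. The highest-mean probe set stood for each of 15037 genes.

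Groups came from the titles. limma (version 3.58.1, R 4.3.3) fitted the group to all genes, with two-sided tests, Benjamini-Hochberg adjustment over all genes and a threshold of 0.05; it was tested on simulated data. The text gives array values for the 10 cytosolic and 4 mitochondrial members of lowest p, their partners, Gars1, Kars1, Qars1 and the most negative members, and up to 4 genes of other lists. Array values of Eef1e1, Farsb and Hars2 were added after they were seen. Members and lists were chosen with earlier results of these data known. The number of arrays limits precision. Alternatives were normalization, centring, probe set averaging, a filter on dim genes, spread estimation, array weights, the replicate block and leaving out arrays.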

Additional observations from a re-analysis of the deposited data

How the results depend on the processing

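The count of 12 cytosolic members higher at an unadjusted p under 0.05 ran from 9 to 13 with 1 array left out, and was 11 with quantile normalization and with the replicate number as a block. Their median ran from 0.23 to 0.37. Of all genes 3.01% were called higher with all arrays and 2.85% without TMAO replicate 3. That share is not given here for the other settings. The count of mitochondrial members stayed 0 in every setting run. For 13 genes that is near the 3.01% of all genes called with all arrays. The mitochondrial median was -0.058 with array weights and ran from -0.081 to 0.012 with 1 array left out. Members past the adjusted threshold were 0 in every setting but trend and robust estimation, where 4 passed (Wars1, Sars1, Yars1 and Gars1, adjusted p of 0.0207, 0.0207, 0.047 and 0.047). Of all genes 4 passed, 9 when genes below the median signal were left out, 30 with trend and robust estimation, 7 with array weights, 0 with the replicate block and 0 to 2 with 1 array left out. Pairs without overlap were 9, and 9 to 10 with 1 array left out, an alternative chosen after seeing the data. With fewer arrays a lack of overlap is easier to reach, so these counts are not like for like. The share over all genes, 3.6% with all arrays, is not given here with 1 array left out. The sign of 19 of 22 cytosolic and 4 of 13 mitochondrial differences held in every setting. It turned for Wars2 and Yars2 with quantile normalization (-0.0021 and 0.0025), for Yars2 with median centring (0.0080), and for Kars1, Hars2 and Wars2 with array weights (-0.0078, -0.064 and -0.040). With 1 array left out differences ran from -0.13 to 0.021 for Farsa, -0.031 to 0.060 for Kars1, -0.056 to 0.20 for Rars1, -0.12 to 0.0033 for Cars2, -0.14 to 0.038 for Ears2, -0.15 to 0.10 for Fars2, -0.15 to 0.30 for Hars2, -0.17 to 0.0026 for Nars2, -0.19 to 0.12 for Pars2, -0.12 to 0.17 for Vars2, -0.13 to 0.17 for Wars2 and -0.081 to 0.10 for Yars2. The cause of these changes was not tested. For same-numbered arrays the deviations from the group means had correlations of 0.13, 0.098 and -0.011, and for arrays of unlike number -0.13 to 0.032. TMAO replicates 1 and 2 correlated best with the Control array of their own number, and TMAO replicate 3 did not. So few arrays cannot settle whether the numbers pair them. The labels state no pairing, so the main fit has no block.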
